A study of Mus musculus with 12 samples.

Results

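Genes for collagens, laminins, matrix proteases with their inhibitors, crosslinking enzymes and a set of tendon and matrix glycoprotein genes were followed in mouse hind limb muscle. They were matched by gene symbol in the table of TPM (transcript abundance per length, scaled within each library), and 118 of 36008 listed genes matched. No measured value entered this rule, but earlier results of these data were known when it was set. The libraries were made from poly(A) RNA of 2 left hind limb muscles, gastrocnemius and quadriceps, taken from 6 female mice aged 30 weeks at the start, of which 3 spent 9 weeks on the International Space Station (flight) and 3 spent 9 weeks on the ground in identical hardware. The comparisons ask which genes differ in level or splicing in each hind limb muscle after microgravity. This gave 4 groups of 3 libraries, ground gastrocnemius, flight gastrocnemius, ground quadriceps and flight quadriceps, and each mouse gave 1 library of each muscle. All mice were given phosphate-buffered saline under the skin every 2 weeks as a control therapy. The labels give the strain as C57BL/6, whereas the methods of the study name BALB/c. Each muscle had been through a freeze and thaw within the carcass by the time it was dissected.

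Muscle fibres are held in layers of matrix made mainly by fibroblasts. Each fibre lies in a basement membrane of laminin and type IV collagen networks, bundles of fibres are wrapped in fibrillar collagens, and tendon matrix takes over at the fibre ends, where force leaves the muscle. Matrix metalloproteinases and ADAMTS proteases cut these proteins, TIMPs block the proteases, and lysyl oxidases crosslink collagen. In tissue RNA, fewer cells of a type and less RNA per cell cannot be told apart.

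TPM corrects for transcript length, so levels of different genes can be set side by side, but the deposited table keeps no read depth, so no counting interval can be given for these values. The number of genes above 0 TPM ranged from 18172 in the quadriceps library of ground mouse M08 to 21265. A gene was tested where it passed 5 TPM in at least 1 of the 12 libraries, which left 52 of the 118 members and 10481 genes in all. Of the 66 members outside the test, 65 were above 0 in at least 1 library and Mmp7, which encodes matrilysin, was listed at 0 in all 12. Listed TPM summed to between 923295 and 966638 per library, each flight library summing higher than each ground library of its muscle. Rescaling the libraries by their median ratio moved the flight-against-ground median of all genes by -0.01 on the log2 scale in each muscle. The 118 members together summed to between 1009 and 1200 TPM per library, 0.109% to 0.129% of the listed TPM. The skeletal muscle markers, by comparison, summed to between 75589 and 102283 TPM per library, led by the fast myosin gene Myh4 (21898 TPM), and none of the 10 was at 0. The most abundant member was Dcn, encoding the small proteoglycan decorin, at a mean of 120 TPM over the 12 libraries, followed by Timp3 at 90.9, Col3a1 at 86.2, Sparc at 70.2 and Col4a1 at 66.2 TPM.

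**Figure D1:**
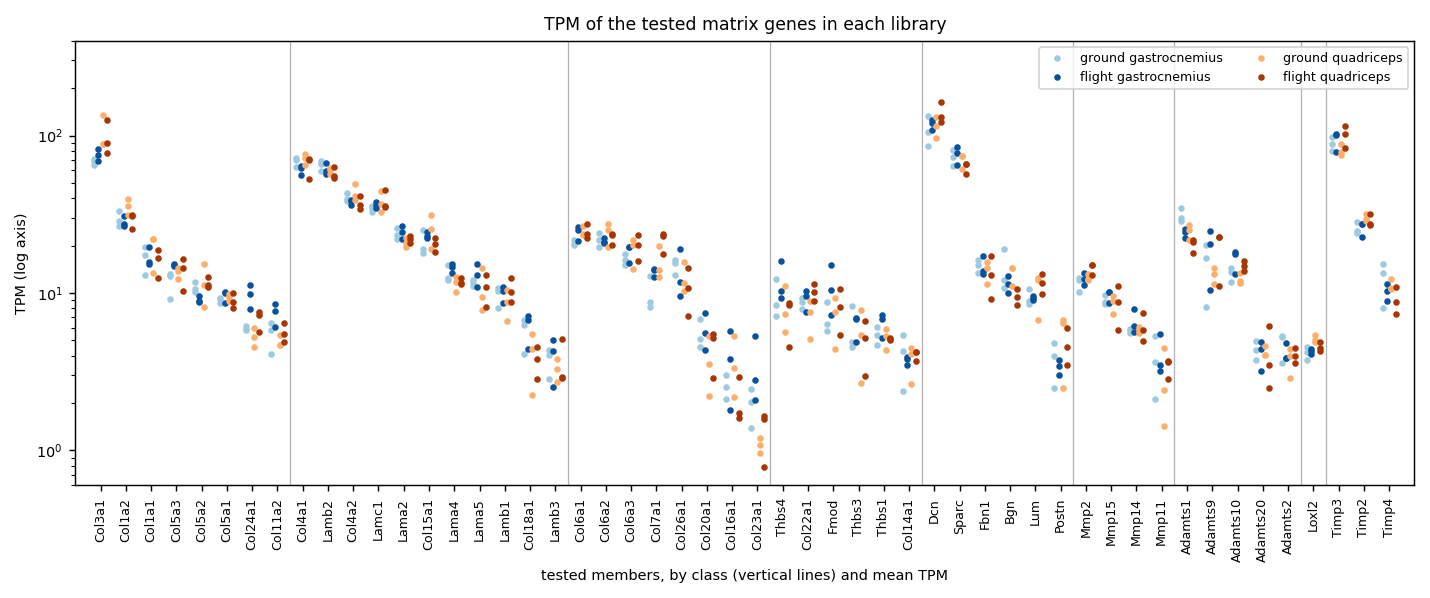
TPM of each of the 52 tested members in each of the 12 libraries on a log axis, grouped by class with vertical lines between classes. Dcn has the highest mean, at 120 TPM, and Col23a1 the lowest of those tested, at 1.94 TPM.

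Ground mouse M08 stood apart from the other ground mice before any comparison. Its gastrocnemius library was the lowest of the 3 ground gastrocnemius libraries for 37 of the 52 tested members (71.2%), against 39.8% of all tested genes, and its quadriceps library for 35 of 52 (67.3%), against 39.4%. Values without this mouse are therefore given beside most counts over all tested members. In flight, the gastrocnemius library of M11 was the lowest for 26 of 52 members (50%, against 27.0% of genes).

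No member passed the call, set at an adjusted p under 0.05 by limma with Benjamini-Hochberg adjustment over all tested genes together with a change over 1.5-fold, in flight against ground. In the gastrocnemius 0 of 52 members were called, against 24 of all genes (0.229%), and in the quadriceps 0 of 52, against 3 genes (0.0286%). Averaging the log2 values of both muscles of each mouse gave 0 of 52 members, against 13 genes (0.124%). The counts over all genes depended on single mice, being 8, 4 and 7 without M08, and ranging from 1 to 133 in the gastrocnemius and 0 to 134 for mouse means when 1 mouse was left out, with the highest counts without M11. At an unadjusted p under 0.05 by limma the gastrocnemius had 5 members (background 15.1% of genes), the quadriceps 3 (10.8%) and the mouse means 4 (18.0%). Without M11 the gastrocnemius had 10 members, against 21.3% of genes, and without M08 these counts were 4, 7 and 9, against 10.7%, 9.70% and 15.0% of all genes. The groups did not overlap for 4 members in the gastrocnemius (21.0% of genes), 3 in the quadriceps (17.4%) and 5 for mouse means (24.4%). Without mouse M08, with 2 ground mice against 3, they did not overlap for 8, 9 and 16 members, against 29.0%, 28.5% and 35.2% of genes.

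The median log2 fold change, computed on log2(TPM + 1) and so understated for low genes, was 0.07 over the tested members of the gastrocnemius, against 0.02 over all genes, with 37 members higher and 15 lower in flight (all genes 5614 and 4861). In the quadriceps it was 0.00, against 0.01, with 26 members higher and 26 lower in flight (all genes 5453 and 5016). Without mouse M08 the split was 22 higher and 30 lower in the gastrocnemius and 18 and 34 in the quadriceps. The member medians were then -0.01 and -0.09, against 0.00 and 0.01 over all genes. M08 was singled out as the lowest ground library for most members, so leaving it out lowers their flight-against-ground values by construction. The change in the split therefore decides nothing further. A missed threshold does not show that levels were alike, and the intervals give the room left. The 95% interval of the fold change lay within 1.5-fold either way for 37 of 52 members in the gastrocnemius (71.2%, against 74.9% of all genes) and for 25 of 52 in the quadriceps (48.1%, against 64.8%). Without mouse M08 these were 29 (55.8%, against 67.9%) and 25 (48.1%, against 64.5%).

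**Figure D2:**
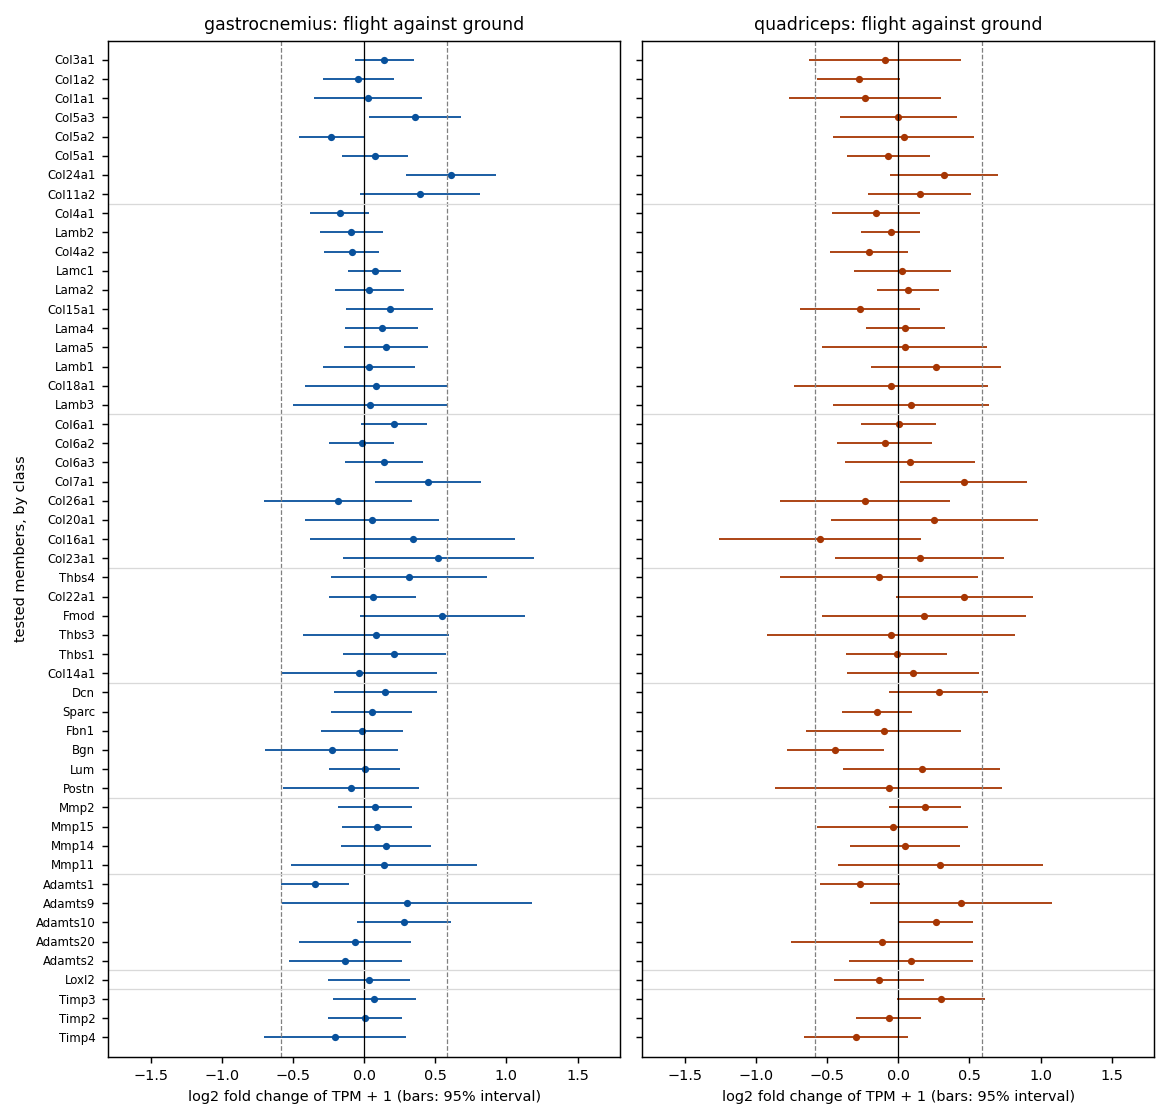
Log2 fold change of flight against ground (points) with 95% intervals (bars) for the 52 tested members in the gastrocnemius (left) and the quadriceps (right), 3 mice against 3, with dashed lines at 1.5-fold. Col24a1 has the largest positive value in the gastrocnemius, 0.61, and no member passed the call in either muscle.

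Among the fibrillar collagens, which form the tensile fibres of the muscle sheaths, 8 of 11 were tested. Col3a1, the chain of type III collagen, was the most abundant, at 70.6, 64.6 and 69.0 TPM in ground gastrocnemius and 75.4, 68.9 and 81.9 TPM in flight gastrocnemius. In the quadriceps it read 88.7, 135 and 88.0 TPM on the ground and 126, 77.2 and 89.2 TPM in flight. The flight and ground values overlapped in both muscles, with 1 high library in each quadriceps group, and the log2 fold change was 0.14 (95% interval -0.07 to 0.35) in the gastrocnemius and -0.09 (95% interval -0.62 to 0.44) in the quadriceps.

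Col1a2 and Col1a1 encode the chains of type I collagen, the main collagen of tendon. Col1a2 was at 28.5, 33.0 and 26.4 TPM in ground and 27.6, 30.8 and 26.8 TPM in flight gastrocnemius, and Col1a1 at 17.4, 19.7 and 13.0 TPM on the ground and 15.6, 19.6 and 15.4 TPM in flight. Both ranges overlapped. In the quadriceps Col1a2 was at 35.9, 39.5 and 31.3 TPM on the ground and 30.6, 25.4 and 31.3 TPM in flight, where 1 flight library equalled the lowest ground library to 3 digits, with a log2 fold change of -0.28 (95% interval -0.57 to 0.01). The ratio of Col1a2 to Col1a1 TPM stayed between 1.57 and 2.33 in the 12 libraries, although type I collagen contains more of the chain that Col1a1 encodes.

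Col24a1, a minor fibrillar collagen gene on chromosome 3 (chr3:145292472-145552011, + strand, GRCm38), had the smallest p of all members in the gastrocnemius. It was at 6.19, 5.78 and 5.89 TPM in ground and 7.90, 9.90 and 11.3 TPM in flight gastrocnemius. Every flight value lay above every ground value, and the means were 5.95 ± 0.212 and 9.70 ± 1.71 TPM (SD, n = 3). The log2 fold change was 0.61 (95% interval 0.29 to 0.93), with an adjusted p of 0.139 by limma, past the fold but not the adjusted threshold. Without flight mouse M11 the limma adjusted p was 0.0402 with a log2 fold change of 0.74, among 133 genes called. M11 held the lowest of the 3 flight values, so leaving it out raises the estimate by construction. Over all alternatives the limma adjusted p ran from 0.0402 to 0.439. In the quadriceps the values were 4.55, 5.95 and 5.27 TPM on the ground and 5.67, 7.25 and 7.54 TPM in flight. These ranges overlapped, with a log2 fold change of 0.32 (95% interval -0.06 to 0.70).

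Type V collagen chains, which help set the width of collagen fibrils, are encoded by Col5a1, Col5a2 and Col5a3. Col5a3 was at 9.12, 13.1 and 12.8 TPM on the ground and 15.0, 15.2 and 14.9 TPM in flight, and Col5a2 at 10.1, 11.7 and 10.7 TPM on the ground and 8.81, 9.53 and 8.91 TPM in flight. Flight values of Col5a3 all lay above and those of Col5a2 all below the ground values, a separation found for 21.0% of all genes, and neither was called, with limma adjusted p of 0.295 and 0.331. Col5a1, at a mean of 9.22 TPM, overlapped in both muscles, with a gastrocnemius log2 fold change of 0.08 (95% interval -0.16 to 0.31). In the quadriceps both overlapped, at log2 fold changes of 0.00 (95% interval -0.41 to 0.41) for Col5a3 and 0.04 (95% interval -0.46 to 0.53) for Col5a2. Of the fibrillar collagens outside the test, Col27a1 reached 3.25 TPM, Col11a1 1.19 TPM and the cartilage gene Col2a1 0.970 TPM at most.

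Col11a2, encoding a chain of type XI collagen that is otherwise known from cartilage, was the only member with splicing events in the tables of exon junction reads. It has 2 entries per muscle, in which exon 6 is used in place of exon 7 or of exon 8. These exons are numbered as in a GENCODE vM21 transcript that holds all 3, lie on the + strand of chromosome 17 (GRCm38), are coding and have lengths divisible by 3. They are shown because the reads divide between them, in lower case since each is alternative along its full length.
Col11a2 exon 6, chr17:34045771-34045848: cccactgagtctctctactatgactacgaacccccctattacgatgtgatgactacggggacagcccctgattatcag
Col11a2 exon 7, chr17:34046440-34046502: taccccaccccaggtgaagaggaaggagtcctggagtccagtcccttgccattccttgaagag
Col11a2 exon 8, chr17:34047098-34047277: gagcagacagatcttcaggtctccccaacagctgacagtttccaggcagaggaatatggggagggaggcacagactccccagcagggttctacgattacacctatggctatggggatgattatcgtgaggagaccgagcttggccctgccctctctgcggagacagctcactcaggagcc

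The percent spliced in (PSI) of exon 6 is its share of the junction reads, which numbered from 7 to 28 per sample in the gastrocnemius. Against exon 8, ground gastrocnemius samples had PSI of 66.7%, 76.9% and 50% on 15, 13 and 12 reads, and flight samples 93.3%, 89.5% and 89.3% on 15, 19 and 28 reads. All flight values were above all ground values, yet single samples were imprecise, as the exact 95% binomial (Clopper-Pearson) interval of the sample at 50% ran from 21.1% to 78.9% and that of the sample at 93.3% from 68.1% to 99.8%. These intervals cover counting error only. The mean was 64.5% ± 13.6 on the ground and 90.7% ± 2.28 in flight (SD, n = 3). Neither of the 2 tested events was called, against 8 of 2118 events (0.378%; 1 to 9 without 1 sample at a time and 36 when weighted by the junction reads), and both had an unadjusted p under 0.05 by limma, against 9.49% of events, with limma adjusted p of 0.300 for exon 8 and 0.384 for exon 7. The 2 entries share exon 6 and most of its reads (10, 11, 6, 13, 17 and 25 inclusion reads in one, 10, 10, 6, 14, 17 and 25 in the other), so they are not independent.

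Against exon 7, ground gastrocnemius samples had PSI of 83.3%, 91.7% and 85.7% and flight samples 92.9%, 100% and 100%. The groups did not overlap for either entry, as for 16.2% of the 2118 tested events. In the quadriceps the Col11a2 entries fell under the minimum of a mean of 10 reads in both groups and were not tested. There exon 6 against exon 7 read 100%, 80.0% and 0% on the ground, on 11, 10 and 8 reads, and 100%, 100% and 91.7% in flight, on 3, 5 and 12 reads. Against exon 8 it read 83.3% and 62.5% on the ground, where the sample at 0% had no reads, and 83.3%, 62.5% and 92.3% in flight. The groups overlapped for both entries. Samples in these tables carry no mouse number. The Col11a2 level was 5.81, 6.49 and 4.09 TPM in ground and 6.07, 8.57 and 7.67 TPM in flight gastrocnemius, overlapping, with a log2 fold change of 0.39 (95% interval -0.03 to 0.81).

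**Figure D3:**
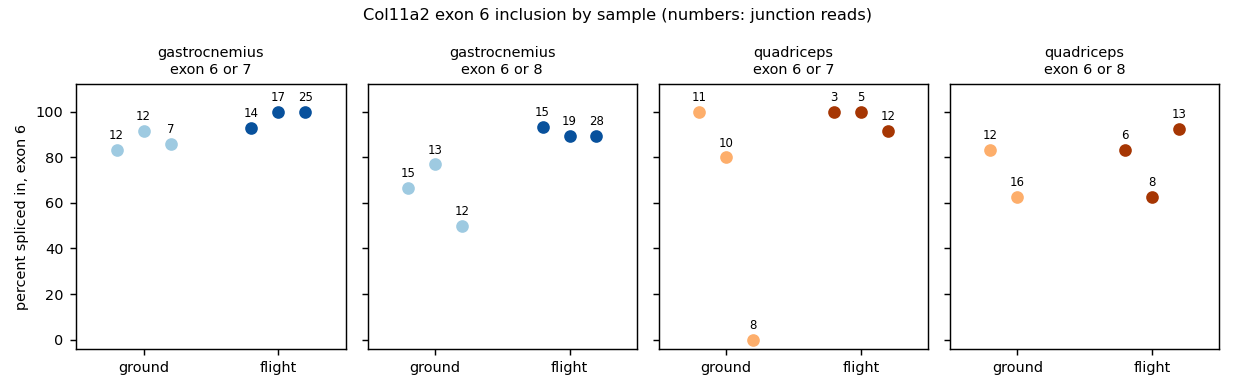
Percent spliced in of Col11a2 exon 6 against exon 7 or exon 8 in each sample of each muscle, with the number of junction reads above each point. In the gastrocnemius all 3 flight samples lie above all 3 ground samples, and in the quadriceps 1 ground sample lies at 0% for exon 7 and has no reads for exon 8.

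Of the basement membrane genes 11 of 19 were tested. In the gastrocnemius the 95% interval of all 11, on log2(TPM + 1), lay within 1.5-fold, against 74.9% of all genes. In the quadriceps that of 6 of 11 did, against 64.8% of all genes. The gastrocnemius intervals of Col18a1 and Lamb3 reached 0.5846 and 0.5827 on that scale, just under the limit. Both are low genes, at means of 4.89 and 3.64 TPM, for which the scale understates the fold of TPM. Their intervals are therefore not shown to lie within 1.5-fold of TPM. Col4a1 and Col4a2 encode the chains of the main type IV collagen and are transcribed away from each other on chromosome 8, from RefSeq starts 21 bases apart at 11312826 (- strand) and 11312805 (+ strand), so that their first bases overlap (GRCm38.p6). Col4a1 was at 63.5, 72.3 and 69.9 TPM in ground and 56.0, 62.0 and 64.2 TPM in flight gastrocnemius, and at 76.6, 65.4 and 71.9 TPM on the ground and 52.6, 70.8 and 69.5 TPM in flight in the quadriceps. Col4a2 was at 43.1, 38.5 and 39.7 TPM on the ground and 36.2, 39.2 and 38.5 TPM in flight in the gastrocnemius, and at 38.8, 41.6 and 48.9 TPM on the ground and 34.3, 36.3 and 41.0 TPM in flight in the quadriceps. Ground and flight overlapped for both genes in each muscle. For mouse means, in which both muscles are joined, neither gene overlapped, flight being lower, a separation found for 24.4% of all genes in either direction. The log2 fold changes were -0.16 (95% interval -0.37 to 0.04) and -0.15 (95% interval -0.32 to 0.02), with limma adjusted p of 0.372 and 0.341. The ratio of Col4a1 to Col4a2 TPM lay between 1.47 and 1.97.

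Laminins are trimers of an alpha, a beta and a gamma chain, and muscle fibres carry mainly those with the alpha chain of Lama2, the gene mutated in a congenital muscular dystrophy. Lama2 was at 23.3, 25.8 and 22.1 TPM in ground and 24.5, 26.7 and 22.0 TPM in flight gastrocnemius, Lamc1 at 35.5, 34.7 and 32.8 TPM on the ground and 36.0, 34.6 and 37.9 TPM in flight. The groups overlapped for both, and the log2 fold changes were 0.04 (95% interval -0.20 to 0.28) and 0.07 (95% interval -0.11 to 0.26). Lamb2 TPM, at a mean of 60.9 over the 12 libraries, was between 4.45 and 9.08 times that of Lamb1, its alternative beta chain, in each library. Lama2 exceeded the vessel-associated alpha chain gene Lama4 by 1.55 to 2.07 times in each library. Lama1 was above 0 in 3 libraries and reached 0.0247 TPM at most.

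Col15a1, whose product links basement membrane to the fibrils around it, was one of the members with the largest difference between muscles in the flight effect. It was at 18.9, 25.1 and 17.8 TPM in ground and 24.4, 22.4 and 22.9 TPM in flight gastrocnemius, and at 19.0, 25.4 and 31.1 TPM on the ground and 22.4, 18.3 and 20.4 TPM in flight in the quadriceps. Ground and flight overlapped in both. The flight effect in the gastrocnemius minus that in the quadriceps was 0.45 on the log2 scale (95% interval -0.03 to 0.93).

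Type VI collagen forms beaded filaments next to the basement membrane, and mutation of its genes causes muscle disease. Col6a1 was at 20.05, 21.6 and 20.6 TPM in ground and 21.3, 26.2 and 25.2 TPM in flight gastrocnemius, Col6a2 at 21.7, 24.0 and 19.6 TPM on the ground and 20.8, 22.4 and 21.1 TPM in flight, and Col6a3 at 16.3, 17.6 and 15.1 TPM on the ground and 15.5, 19.7 and 19.5 TPM in flight. All 3 overlapped, with log2 fold changes of 0.21, -0.02 and 0.14. The ratio of Col6a1 to Col6a2 TPM was between 0.901 and 1.20 and that of Col6a3 to Col6a1 between 0.617 and 0.854.

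**Figure D4:**
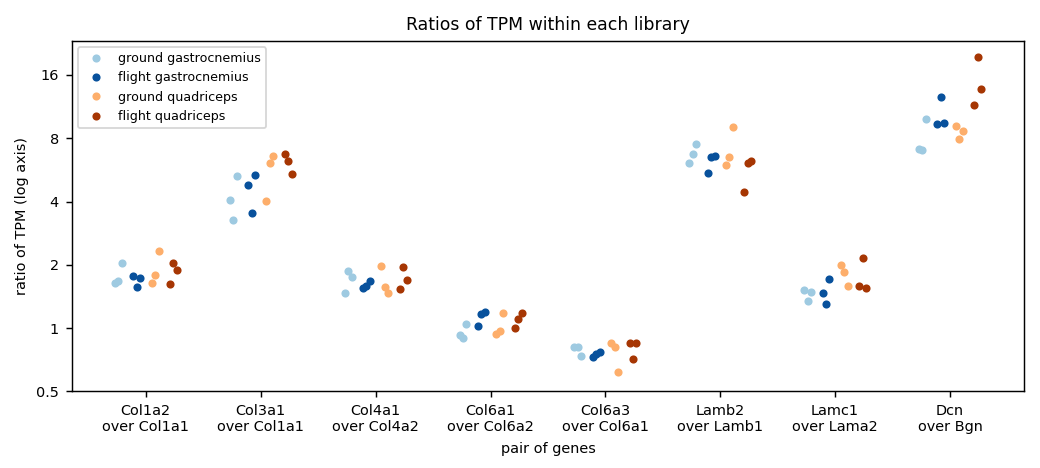
Ratio of TPM of pairs of members within each of the 12 libraries, on a log axis, with points coloured by group. Col4a1 over Col4a2 spans 1.47 to 1.97 and Col6a1 over Col6a2 spans 0.901 to 1.20, whereas Dcn over Bgn spans 7.05 to 19.6.

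Col7a1, which encodes the collagen of anchoring fibrils, lies on chromosome 9 (chr9:108953586-108984875, + strand, GRCm38). In the gastrocnemius it was at 12.8, 8.82 and 8.13 TPM on the ground and 12.6, 14.2 and 14.1 TPM in flight. In the quadriceps it was at 19.9, 13.96 and 12.7 TPM on the ground and 17.8, 22.9 and 23.8 TPM in flight. In each muscle 1 ground library, both times that of mouse M02, fell within the flight range. The log2 fold change was 0.45 (95% interval 0.08 to 0.82) and 0.46 (95% interval 0.01 to 0.91), with limma adjusted p of 0.270 and 0.450. Col26a1, at a mean of 12.9 TPM, overlapped in both muscles. Col20a1, Col16a1 and Col23a1, at means of 4.88, 3.01 and 1.94 TPM, also passed the filter, and flight overlapped ground for each in both muscles. Of the 22 members of this class 14 did not pass the filter, Col8a1 reaching 2.91 TPM and Col6a6 3.21 TPM at most.

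Of the tendon and myotendinous junction genes 6 of 10 were tested, all at low level. Fmod, encoding fibromodulin, which binds collagen fibrils, was at 6.39, 8.77 and 5.74 TPM in ground and 7.28, 15.2 and 10.4 TPM in flight gastrocnemius. Thbs4, a thrombospondin of tendon and muscle attachment, was at 8.38, 12.2 and 7.15 TPM on the ground and 9.22, 15.9 and 10.3 TPM in flight. Both overlapped, with 1 high flight library, mouse M12, in each, and log2 fold changes of 0.55 (95% interval -0.03 to 1.13) and 0.32 (95% interval -0.23 to 0.87).

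Col22a1, whose collagen sits at the myotendinous junction, was at 8.94, 7.54 and 5.07 TPM in ground and 10.1, 8.87 and 11.4 TPM in flight quadriceps. The ranges overlapped at a single pair of values, with a log2 fold change of 0.46 (95% interval -0.02 to 0.94). Thbs3 and Thbs1, 2 other thrombospondin genes, had means of 5.57 and 5.53 TPM and overlapped in both muscles. Tnmd, encoding tenomodulin, a defining marker of tendon cells, reached 0.787 TPM and Comp 2.64 TPM at most, and neither was tested. The 9 tendon cell markers summed to between 24.5 and 50.3 TPM per library.

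Dcn was at 85.3, 134 and 105 TPM in ground and 119.6, 126 and 109 TPM in flight gastrocnemius. Bgn, encoding the related proteoglycan biglycan, was at 14.3, 14.4 and 11.1 TPM in ground and 10.6, 8.38 and 9.47 TPM in flight quadriceps. Dcn overlapped in both muscles, while every flight quadriceps value of Bgn lay below every ground value. The log2 fold change of Bgn was -0.44 (95% interval -0.78 to -0.10) in the quadriceps, with a limma adjusted p of 0.378, and -0.23 (95% interval -0.69 to 0.24) in the gastrocnemius, where the groups overlapped. Without mouse M03, whose ground gastrocnemius library held the highest Bgn value, the gastrocnemius estimate was 0.00. Sparc, encoding the collagen-binding protein osteonectin, was at 73.3, 80.5 and 64.2 TPM on the ground and 65.1, 84.2 and 77.2 TPM in flight in the gastrocnemius, overlapping. Fbn1 and Lum, encoding fibrillin-1 and lumican, had means of 14.1 and 10.2 TPM and overlapped in both muscles. Fbn2 was the 1 gene of this class not tested.

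Among the proteases, 4 of 21 matrix metalloproteinases and 5 of 19 ADAMTS genes were tested. Adamts1 was the 1 member whose flight and ground values did not overlap in the same direction in both muscles, which held for 6.00% of all tested genes. The gene (chr16:85793827-85803113, - strand, GRCm38) encodes a protease that cleaves large proteoglycans such as versican. The 250 bases before the start of Adamts1, Col24a1 and Col7a1 are given as promoter stretches. These are the 3 members with the smallest p by limma in flight against ground gastrocnemius. The stretches are from RefSeq (GRCm38.p6), 5′ to 3′ on the strand of the gene. Capitals mark the 3 motifs searched on both strands, none overlapping another motif. The first is the CCAAT box, with just those letters, the second the GC box, spelled GGGCGG, and the third the TATA box, spelled as TATAAA.
Adamts1, chr16:85803114-85803363, - strand: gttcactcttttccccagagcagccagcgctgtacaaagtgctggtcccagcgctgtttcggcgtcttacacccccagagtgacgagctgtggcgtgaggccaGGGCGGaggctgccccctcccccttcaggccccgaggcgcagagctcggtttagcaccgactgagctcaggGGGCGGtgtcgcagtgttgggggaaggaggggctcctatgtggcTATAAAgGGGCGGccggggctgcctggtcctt
Col24a1, chr3:145292222-145292471, + strand: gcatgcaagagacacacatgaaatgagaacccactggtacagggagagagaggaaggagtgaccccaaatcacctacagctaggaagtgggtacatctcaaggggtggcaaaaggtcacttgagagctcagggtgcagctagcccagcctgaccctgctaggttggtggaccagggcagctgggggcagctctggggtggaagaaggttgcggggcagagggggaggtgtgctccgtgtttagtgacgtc
Col7a1, chr9:108953336-108953585, + strand: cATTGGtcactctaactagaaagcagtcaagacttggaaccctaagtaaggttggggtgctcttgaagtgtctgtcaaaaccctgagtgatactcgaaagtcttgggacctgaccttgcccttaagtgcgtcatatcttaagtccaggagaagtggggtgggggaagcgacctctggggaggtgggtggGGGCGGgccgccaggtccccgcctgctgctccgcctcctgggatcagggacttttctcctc

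The Adamts1 stretch held 3 GC boxes and 1 TATA box, the Col7a1 stretch 1 GC box and 1 CCAAT box on the opposite strand, and the Col24a1 stretch none of these letters. Of 32851 stretches of this length in the table, 32.7% held a GC box, 33.8% a CCAAT box and 12.4% a TATA box. Among the 88 stretches of 80 members found in the table, the shares were 51.1%, 27.3% and 15.9%. A match is a run of letters and not a site.

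Adamts1 was at 30.02, 34.6 and 28.5 TPM in ground and 25.5, 22.5 and 24.5 TPM in flight gastrocnemius, and at 25.0, 26.9 and 21.7 TPM on the ground and 21.1, 17.9 and 21.6 TPM in flight in the quadriceps. All flight values lay below all ground values within each muscle, though in the quadriceps the nearest pair was 21.7 and 21.6 TPM. The means were 31.1 ± 3.17 and 24.2 ± 1.57 TPM in the gastrocnemius and 24.5 ± 2.61 and 20.2 ± 1.995 TPM in the quadriceps (SD, n = 3). The log2 fold change was -0.35 (95% interval -0.58 to -0.11) and -0.27 (95% interval -0.55 to 0.02), and -0.31 (95% interval -0.53 to -0.08) for mouse means, with limma adjusted p of 0.217, 0.482 and 0.173. The muscles come from the same mice and are not independent.

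Adamts10, whose product is tied to fibrillin microfibrils, was at 11.5, 11.9 and 13.5 TPM in ground and 16.1, 13.9 and 14.9 TPM in flight quadriceps, and at 11.7, 14.4 and 13.5 TPM on the ground and 13.2, 17.6 and 18.3 TPM in flight in the gastrocnemius. Flight lay above ground in the quadriceps and overlapped it in the gastrocnemius, with log2 fold changes of 0.27 (95% interval 0.01 to 0.53) and 0.28 (95% interval -0.05 to 0.61). Adamts9, a protease of proteoglycans, spread widely, at 20.1, 16.7 and 8.11 TPM in ground and 10.5, 24.7 and 20.6 TPM in flight gastrocnemius, with a log2 fold change of 0.30 (95% interval -0.58 to 1.18). Mmp2, a gelatinase, and Mmp14, the membrane protease that activates it, had means of 12.7 and 6.04 TPM, and their ratio was between 1.68 and 2.63 in each library. Mmp15, at a mean of 8.94 TPM, overlapped between flight and ground in both muscles, as did Mmp2 and Mmp14. Mmp9 reached 1.13 TPM and Mmp13 0.0752 TPM at most, so neither was tested.

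Timp3, encoding the inhibitor that is bound to matrix, was at 78.3, 75.2 and 88.8 TPM in ground and 83.0, 115 and 103 TPM in flight quadriceps, overlapping, with a log2 fold change of 0.30 (95% interval -0.01 to 0.61). Its TPM was between 2.36 and 4.07 times that of Timp2 in each library. Timp4 had a mean of 10.6 TPM, while Timp1 was above 0 in 8 libraries and reached 0.921 TPM at most. Of the 5 crosslinking oxidase genes Loxl2 alone was tested, at a mean of 4.52 TPM, and Loxl1 and Lox had means of 3.39 and 2.09 TPM.

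**Figure D5:**
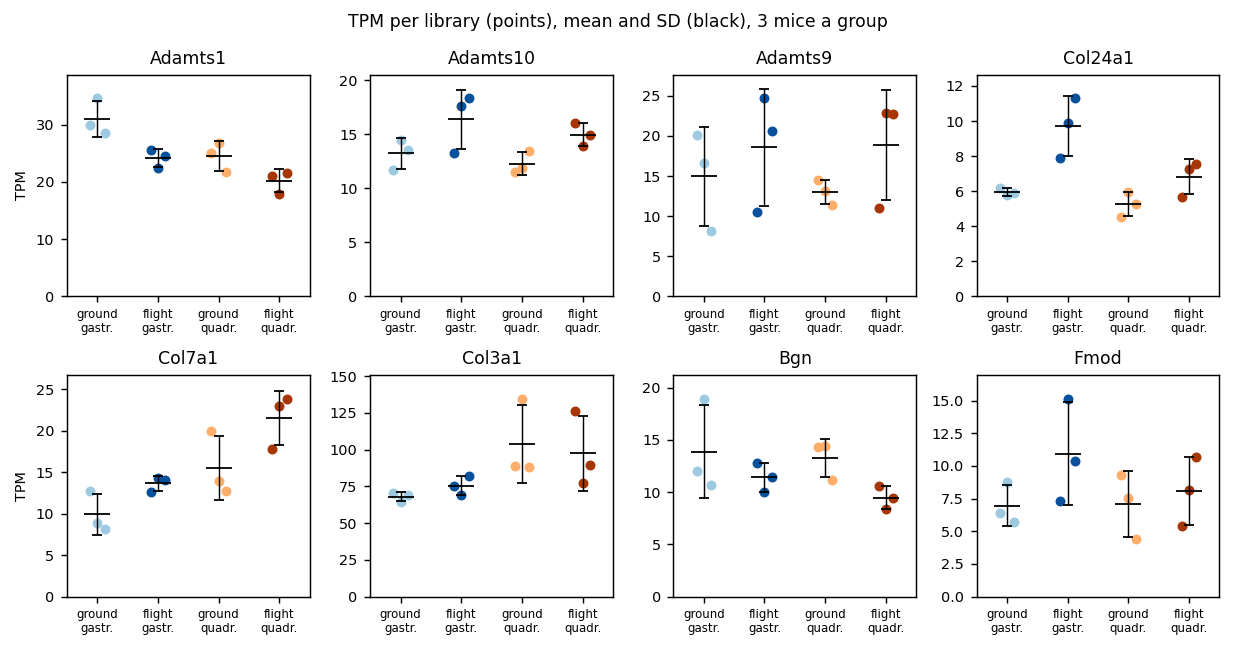
TPM of 8 members in each library (points) with the mean and SD of each group of 3 mice (black), on axes that start at 0. For Adamts1 every flight library lies below every ground library of the same muscle, and for Col24a1 this separation, with flight higher, is present in the gastrocnemius.

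Between the muscles on the ground, 0 of 52 members were called, against 232 genes (2.21%; 0 to 10 without 1 mouse at a time), with 5 members at an unadjusted p under 0.05 by limma, against 27.7% of genes, and 6 members whose groups did not overlap, against 33.8%. Without mouse M08 9 members were at an unadjusted p under 0.05, against 25.3% of genes. Rescaling the libraries by their median ratio moved the median of all genes by 0.11 on the log2 scale, from -0.12 to 0.00, and that of the members from 0.05 to 0.15. Col3a1 had the smallest p of the members, the gastrocnemius being lower in all 3 ground mice, with a log2 fold change of -0.57 (95% interval -0.96 to -0.19) and a limma adjusted p of 0.0716. Rescaled, it was -0.45. With mouse as a block, which matches the 2 muscles of each mouse, 1 of 52 members, Col7a1, was called, against 198 of 10481 genes. Its log2 fold change was -0.60 with a limma adjusted p of 0.0409 (0.0409 to 0.389 over its alternatives). Gastrocnemius was lower in each of the 3 mice, and Col7a1 was not called under any other setting. Without the block its adjusted p was 0.122 by limma, and rescaled, also without the block, its log2 fold change was -0.48, under 1.5-fold. In the fit without the block the fibroblast marker Dpt was called lower in the gastrocnemius, at a log2 fold change of -0.69 and a limma adjusted p of 0.0458, the 1 of 13 fibroblast markers called, while 4 of the 13 were higher and the median was -0.09. All 9 tested adipocyte markers had lower values in the gastrocnemius. Their sums were 293, 259.8 and 208 TPM there, against 652, 433 and 350.0 TPM in the quadriceps. Of these, 1 was called, Fabp4, at -0.89 with a limma adjusted p of 0.0354. Of 10 skeletal muscle markers 6 were lower and 4 higher, and Pvalb was called, at -0.66 with a limma adjusted p of 0.0112. Without mouse M03 0 genes were called. Values were higher for 7 of 8 pericyte and smooth muscle markers and 9 of 10 endothelial markers, with 0 called. For macrophage markers 5 of 6 were lower, with 0 called. Neither Dpt nor Fabp4 was called when any 1 of the 3 mice was left out or after rescaling, and with mouse as a block both were. The part of these cells in the Col3a1 and Col7a1 values was not tested.

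A flight effect unlike in the 2 muscles was called by limma for 0 of 52 members, against 0 of 10481 genes (0%), with 0 members at an unadjusted p under 0.05, against 5.09% of genes, and 2 without mouse M08, against 4.68%. The intervals were wide, and that of 21 of 52 members lay within 1.5-fold (40.4%, against 56.7% of all genes). The largest estimate was that of Col16a1, a gene of low level, at 0.89 (95% interval -0.06 to 1.85). For Thbs4 the difference was 0.46 (95% interval -0.19 to 1.10) and for Col22a1 -0.40 (95% interval -0.88 to 0.08) on the log2 scale.

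Genes that process collagen or bind matrix were read alongside. Of the collagen processing genes, 18 of 24 were tested and 0 called in flight against ground in either muscle, and their log2 fold changes had medians of -0.04 in the gastrocnemius and 0.00 in the quadriceps. P4hb, a subunit of the prolyl hydroxylase, and Mia3, needed for collagen export, were the most abundant, at means of 110 and 71.4 TPM. Other matrix proteins, with 16 of 22 tested and led by Hspg2 and Fn1, encoding perlecan and fibronectin, had 0 called and medians of 0.00 and 0.03. Matrix receptors, with 17 of 21 tested and led by Sgca and Itgb1, and TGF-beta signalling genes, with 18 of 19 tested and led by Ltbp1 and Smad4, also had 0 called by limma in each muscle. At an unadjusted p under 0.05 these 4 lists had 0, 0, 1 and 2 genes in the gastrocnemius and 0, 0, 1 and 2 in the quadriceps. Between muscles on the ground 1 receptor gene was called, Itga5, a fibronectin receptor subunit, higher in the gastrocnemius by 0.78 on the log2 scale with a limma adjusted p of 0.0400, against 2.21% of all genes called. It was not called when any 1 of the 3 mice was left out or with mouse as a block.

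Several lists of markers of other cells varied among the same libraries, and their part in the members' flight values was not tested. A further list of markers is not described here, so this account of other cells is incomplete. Fibroblast markers, all 13 tested and led by Gsn, summed to between 517 and 803 TPM per library and had medians of 0.05 in the gastrocnemius and 0.16 in the quadriceps in flight against ground, with 0 called. Dcn and Lum are also in this list. Adipocyte markers, led by Fabp4, summed to 652, 433 and 350 TPM in ground and 240, 228 and 314 TPM in flight quadriceps, all flight sums being lower, and 8 of 9 tested had an unadjusted p under 0.05 there with 0 called by limma. Bgn was also lower in these flight libraries, while of the 52 tested members 26 were higher and 26 lower in flight quadriceps by log2 fold change. A link of Bgn to the adipocyte markers was not tested. Endothelial markers, led by Egfl7, summed to between 149 and 261 TPM per library, those of pericytes and smooth muscle, led by Rgs5, to between 290.0 and 349.9 TPM per library, and macrophage markers, led by Lyz2, to between 41.1 and 74.6 TPM per library. Mast cell and neutrophil markers, 2 of 7 tested and led by S100a9, summed to 9.06, 9.95 and 31.4 TPM in ground and 37.2, 43.4 and 30.8 TPM in flight quadriceps, the ground library of M08 lying within the flight range, and to between 4.56 and 8.56 TPM in the gastrocnemius libraries. S100a9 was higher in all 3 flight quadriceps libraries than in the ground ones, a separation found for 17.4% of all genes in either direction. Its log2 fold change was 1.95 (95% interval 0.59 to 3.31) with a limma adjusted p of 0.355. S100a8, the other marker tested, overlapped there, at 1.56 (95% interval -0.47 to 3.59). In the gastrocnemius S100a9 reached 1.03 TPM at most and was lower in all 3 flight libraries, at -0.59 (95% interval -1.29 to 0.12). None of the 8 cartilage and bone markers passed the filter, Matn1 was at 0 in all 12 libraries, and their sum was at most 3.14 TPM.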

How the data were processed

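The authors deposited TPM, made by their processing with kallisto 0.46.0 and summed per gene with tximport, and junction reads per splicing event from STAR 2.7.1a and rMATS-turbo; the tximport and rMATS-turbo versions are not given in the sources used here. The authors' comparison columns hold p-values (PValue), adjusted p-values (FDR) and differences in inclusion level (IncLevelDifference) and were not used. The authors tested counts with DESeq2; TPM are not counts, so limma 3.58.1 in R 4.3.3 was fitted with a trend to log2(TPM + 1), for the 10481 genes above 5 TPM in at least 1 of 12 libraries, with Benjamini-Hochberg adjustment over them. A call needed both an adjusted p under 0.05 and over 1.5-fold change. Splicing was tested with limma on log2 of inclusion over skipping reads (0.5 added), where each group averaged over 10 junction reads and PSI left the outer 5% in some sample, and a call needed an adjusted p under 0.05 with over 5 points of PSI. P-values are two-sided. Symbols (35856 of 36008 genes) and exons come from GENCODE vM21, promoter stretches from RefSeq.

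The labels give the mouse of each library. The 2 muscles of a mouse share the mouse, so mouse was a block in the test of the muscle difference in the flight effect. Residuals of the 2 muscles of a mouse correlated over genes at 0.01 to 0.33, except -0.12 in M20. Ground and flight libraries of the same number gave -0.18 to 0.11. These ranges overlap, so the correlations do not show whether the numbers pair mice, and no such pairing entered the main fits. Named members are those with the highest mean TPM in each class (5, or 3 for enzymes, inhibitors and oxidases), the 3 with the largest fold change in each comparison among those with a mean over 5 TPM, called members, and those whose groups lie apart in both muscles with one direction; of the context lists, the 2 most abundant genes and those called; of splicing, the events with the smallest p. Other members were named after their values were seen. The symbol rule for the members used none of their values, but it and the lists were set with earlier results of these data known. The expression and splicing tests were also run on simulated data, with no outcome given here and no result resting on it.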

Additional observations from a re-analysis of the deposited data

How the results depend on the processing

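The count of members called was 0 under each setting tried, apart from 1 member, Col24a1, in the gastrocnemius without mouse M11 and 1, Col7a1, between muscles on the ground with the replicate block (mouse); leave-one-out counts ranged from 0 to 1 in the gastrocnemius and were 0 elsewhere. Without M11 the adjusted p of Col24a1 by limma was 0.0402 (0.0402 to 0.439 over its alternatives), and with the block that of Col7a1 was 0.0409 (0.0409 to 0.389). M11 held the lowest flight gastrocnemius value of Col24a1, so leaving it out raises that estimate by construction. The cause of either call was not tested. The replicate number as a replicate block gave 0 members in both flight comparisons and for mouse means. Members at an unadjusted p under 0.05 ranged, without 1 mouse at a time, from 3 to 10 in the gastrocnemius, 1 to 7 in the quadriceps, 2 to 9 for mouse means, 2 to 9 between muscles and 0 to 4 for the muscle difference, and under the other settings from 4 to 8, 1 to 10, 4 to 8, 4 to 10 and 0 to 5. The count of all genes called depended on single mice: 24 in the gastrocnemius ranged from 1 to 133 (133 without M11), 13 for mouse means from 0 to 134 (134 without M11), 232 between muscles from 0 to 10 and 3 in the quadriceps from 1 to 4; under the other settings these ranged from 0 to 32, 0 to 32, 57 to 272 and 0 to 2. Of the log2 fold changes of the named members, 2 of 2400 values under an alternative passed the joint call of fold and adjusted p, those of Col24a1 and Col7a1 above; fold changes alone crossed 1.5-fold more often, as for Col7a1 in flight gastrocnemius (up to 0.63) and Col24a1 there (down to 0.42), and Col24a1 for mouse means reached an adjusted p of 0.0358 by limma (up to 0.406). The sign was that of the reported estimate in 2251 and the other in 149, none of them for an estimate with an unadjusted p under 0.05; Bgn in the gastrocnemius ran from -0.38 to 0.00 and Col3a1 in the quadriceps from -0.29 to 0.11. Member splicing events called in the gastrocnemius were 0 under each setting that kept one; a mean of over 20 junction reads left none, and in the quadriceps no member event was kept under any setting, so 0 there says nothing. The deposited TPM hold no read depth, so no depth limit is given for single values.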
